A study of Mus musculus with 4 samples.

Results

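The genes described here encode the BCL2 family, the caspases with their adaptors and inhibitors, and the executors of necroptosis and pyroptosis, the lytic and inflammatory forms of cell death. They were chosen by symbol, 33 genes in all, out of 27179 rows of a table of gene counts, and each of the 33 had a row. RNA came from mAECs, a murine line of aortic endothelium, the cell layer that lines the main artery. Control cells had been kept in normal medium. The other cells had been exposed to conditioned medium, that is, supernatant taken from macrophages that carried CD68, a marker of their lineage, and the inflammatory cytokine TNFα. There were 2 libraries per group, described by the series as biological replicates. The sources used here do not give the length of exposure, the dose of supernatant or the genotype of the cells, and no group with the supernatant of other macrophages was analysed here.

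In the mitochondrial pathway of apoptosis, BH3-only proteins such as BIM and PUMA bind and neutralise the anti-apoptotic BCL2 relatives, which otherwise hold BAK and its kin in check. Freed effectors perforate the outer mitochondrial membrane, and the cytochrome c that escapes assembles with APAF1 to activate caspase-9. TNF receptors can start death from outside through FADD and caspase-8, a step restrained by c-FLIP, the product of Cflar. When caspase-8 is blocked, RIPK3 and MLKL can kill by necroptosis. Inflammatory caspases cleave gasdermin D, whose pores cause pyroptosis. In endothelium these routes are known for their part in vessel regression and in the vascular injury of inflammation.

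Library totals ranged from 13815695 to 18005840 counts, at which 3 counts equalled 0.167 to 0.217 CPM, a count scaled to library size (by the TMM method). The labelled cell type was met by its markers: the 8 endothelial markers, Pecam1 and Cdh5 among them, summed to between 6607 and 6680 CPM in every library, and of them Kdr and Emcn were called lower. Mural and fibroblast markers, 8 in number, summed to 28.1 and 29.7 CPM in control and 34.7 and 35.6 in conditioned medium, mostly Pdgfra, which was called higher (log2 fold change 0.28 ± 0.08; edgeR adjusted p = 0.0171). The part of these markers in the results that follow was not tested. Of 10 macrophage markers 7 had at most 3 counts in any library, and Adgre1, Mrc1 and Tyrobp were at 0 in all. Cd68 stood at 234 and 245 CPM in the control and conditioned medium groups. Over 10662 genes averaging 100 counts or more, the chi-square per gene was 5.64 between the controls and 1.58 between the treated libraries, so replicates differed beyond counting noise. How the replicates of a group were cultured is not stated, so p-values measure the spread between these libraries, which may be technical. The sources used here do not say whether the groups were handled in separate batches, and a batch that follows the groups cannot be told apart from the treatment.

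Of the 33 genes, 28 had enough counts to be tested. Bcl2 and Casp8 fell in conditioned medium, and Bad, Bmf and Nlrp3 rose, by edgeR's quasi-likelihood test at an adjusted p under 0.05. The 5 genes called were 17.9% of those tested, beside 16.8% called among all 13897 genes tested. In single directions, 8.53% of all genes tested were called higher and 8.23% lower. The roles described below hold few genes each, and shares called were not compared between them. The median log2 fold change was 0.04 over the 28 genes, beside 0.00037 over all genes tested, and the median absolute log2 fold change was 0.13 in each. In 17 of the 28 the groups did not overlap in CPM, beside 57.2% of all genes tested. Fewer genes of any kind were called when a conditioned medium library was left out, in fits where only the controls could give a spread. Without replicate 1 of that group edgeR called 0 of the 28, beside 5.71% of all genes tested, and 7 had an unadjusted p under 0.05, beside 19.7%. Without replicate 2 it called 0, beside 4.03%, and 5 had an unadjusted p under 0.05, beside 18.5%. DESeq2 called 0 of the 27 to which it gave an adjusted p, beside 7.48% of all genes with one. Of those 27, 4 had an unadjusted p under 0.05, beside 15.5% of all genes tested, with an adjusted p or not. Limma-voom called 5, beside 16.7%, and 9 had an unadjusted p under 0.05, beside 29.6%. The control pair was the wider in 20 of the 28 genes, with a median absolute log2 ratio of 0.10 against 0.06 between the libraries of a pair.

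**Figure D1:**
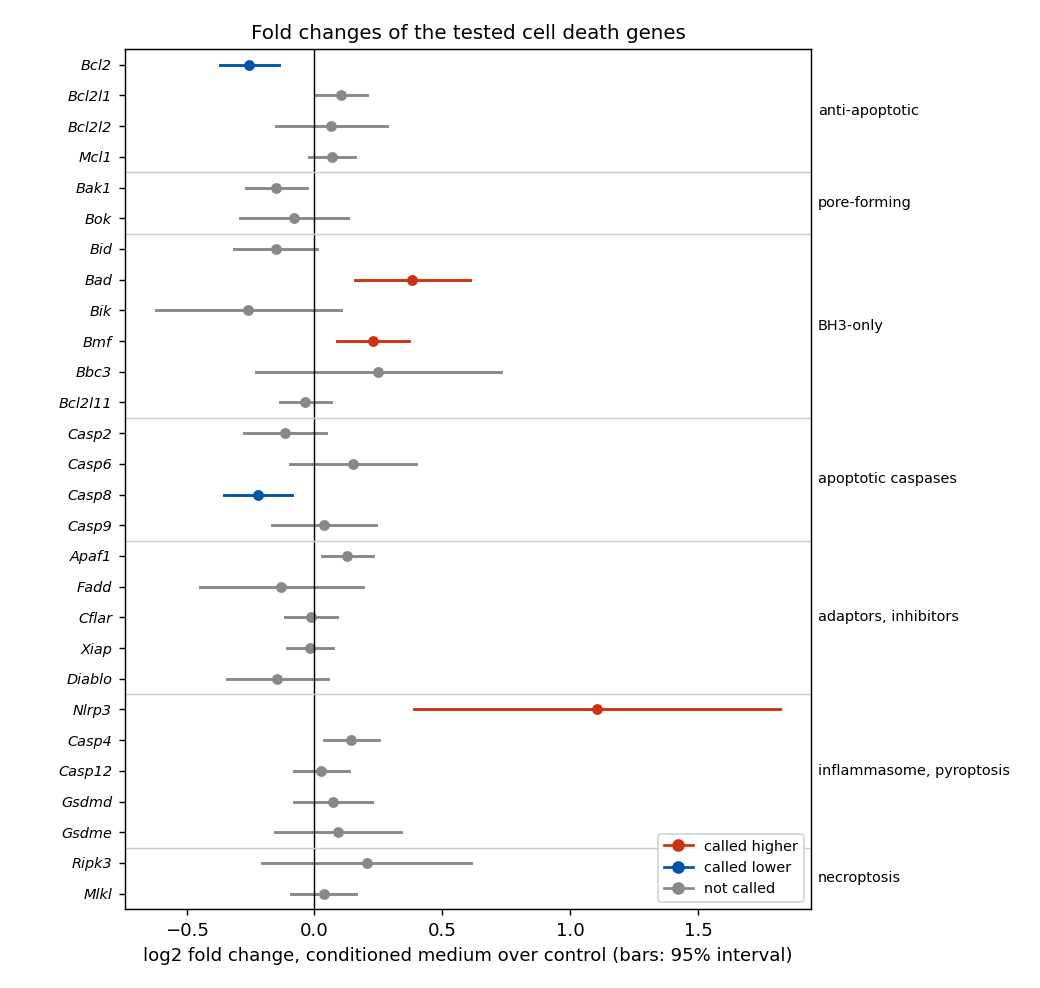
Log2 fold change of each of the 28 tested genes, conditioned medium over control (x axis), with 95% intervals, grouped by role. Bcl2 and Casp8 lie to the left of 0 and Bad, Bmf and Nlrp3 to the right, with Nlrp3 at 1.10 and the others within 0.38 of 0.

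The promoters of the 5 genes called are printed first, since these genes passed the test. Each runs 5′ to 3′ on the gene's own strand from 250 bases before to 50 bases after a RefSeq start site of GRCm38.p6. For Bcl2, Bad, Bmf and Nlrp3 that site is the 5′ end of the gene's RefSeq span; for Casp8 the site used lies 7269 bases inside the span, so the sequence before the outermost end of Casp8 was not searched. They lie at chr1:106714241-106714540 on the minus strand (Bcl2), chr1:58802252-58802551 on the plus strand (Casp8), chr19:6941611-6941910 on the plus strand (Bad), chr2:118549637-118549936 on the minus strand (Bmf) and chr11:59541319-59541618 on the plus strand (Nlrp3). Capitals mark matches to any of 6 motifs, searched on both strands.
Bcl2: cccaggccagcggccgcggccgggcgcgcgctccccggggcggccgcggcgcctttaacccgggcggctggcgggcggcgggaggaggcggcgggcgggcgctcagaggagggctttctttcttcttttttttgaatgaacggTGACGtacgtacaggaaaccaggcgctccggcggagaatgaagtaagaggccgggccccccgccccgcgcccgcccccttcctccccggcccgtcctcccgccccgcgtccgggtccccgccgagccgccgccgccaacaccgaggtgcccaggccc
Casp8: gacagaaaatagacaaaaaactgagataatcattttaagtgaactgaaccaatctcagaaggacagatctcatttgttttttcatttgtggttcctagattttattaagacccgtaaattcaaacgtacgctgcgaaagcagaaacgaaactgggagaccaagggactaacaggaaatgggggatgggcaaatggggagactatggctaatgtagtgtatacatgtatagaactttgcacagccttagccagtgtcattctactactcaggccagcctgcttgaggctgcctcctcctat
Bad: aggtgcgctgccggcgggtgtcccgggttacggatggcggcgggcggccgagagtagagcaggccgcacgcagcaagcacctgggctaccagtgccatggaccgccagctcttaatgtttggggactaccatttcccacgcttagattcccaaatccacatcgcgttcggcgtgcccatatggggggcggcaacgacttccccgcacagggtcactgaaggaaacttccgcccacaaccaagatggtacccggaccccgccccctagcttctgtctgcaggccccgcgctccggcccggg
Bmf: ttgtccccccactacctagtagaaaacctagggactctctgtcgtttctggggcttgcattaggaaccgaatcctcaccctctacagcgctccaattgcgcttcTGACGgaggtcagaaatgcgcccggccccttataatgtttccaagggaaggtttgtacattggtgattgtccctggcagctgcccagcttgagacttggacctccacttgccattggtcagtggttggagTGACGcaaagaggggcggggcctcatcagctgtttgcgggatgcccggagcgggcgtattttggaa
Nlrp3: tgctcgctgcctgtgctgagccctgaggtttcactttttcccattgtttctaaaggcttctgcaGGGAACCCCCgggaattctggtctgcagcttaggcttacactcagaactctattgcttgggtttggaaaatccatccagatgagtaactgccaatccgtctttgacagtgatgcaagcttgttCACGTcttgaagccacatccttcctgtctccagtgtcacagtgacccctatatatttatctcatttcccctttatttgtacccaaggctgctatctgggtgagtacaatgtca

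The motifs were the interferon-stimulated response element (GAAANNGAAA), the GAS element (TTCNNNGAA), the kB consensus, the hypoxia response element core (ACGTG), a forkhead motif (GTAAACA) and the CRE half-site (TGACG); the core of a CRE can overlap that of a hypoxia element. The Nlrp3 window held a kB match, whose first base lies 186 bases before the start site, and a hypoxia core 63 bases before it. CRE half-sites stood 107 bases before the Bcl2 start and 146 and 16 bases before the Bmf start. The Bad window and the internal Casp8 window held 0 matches. The promoter set listed 2 start sites for Bad, 3 for Bmf and 2 for Nlrp3, and only the outermost of each was searched. Among 32851 promoters of the same length, 8.46% held the kB consensus, 19.6% the hypoxia core, 20.8% the CRE half-site, 3.44% the interferon element, 8.30% the GAS element and 3.65% the forkhead motif. Promoters were listed for 30 of the 33 genes. A match describes letters in a window and is not evidence of binding.

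Among the anti-apoptotic genes Bcl2 fell, and its more abundant relatives Mcl1 and Bcl2l1 had slightly higher means that did not pass the test. Bcl2, the founding member of the family, at chromosome 1, 106538176 to 106714290 in GRCm38, the build called mm10, read 78.5 and 80.5 CPM in the control libraries and 65.1 and 68.0 in conditioned medium. Both treated libraries lay below both controls. The fall was 1.19-fold (log2 fold change -0.26 ± 0.06, SE; edgeR adjusted p = 0.00268). In bulk RNA, fewer cells carrying a transcript and less of it per cell cannot be told apart. Bcl2 missed the threshold in DESeq2 (adjusted p = 0.0509) and in edgeR without conditioned medium replicate 1 (adjusted p = 0.0957) or replicate 2 (adjusted p = 0.0548), at log2 fold changes of -0.22 to -0.29 over 13 alternatives, the lowest adjusted p being 2.25e-04. An antisense gene, D630008O14Rik, shares 558 of 9157 exonic bases with Bcl2, and the library kit does not mark strand.

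Bcl2l1, whose main product is the anti-apoptotic BCL-XL, read 137 and 148 CPM in control and 153 and 152 in conditioned medium. Its groups did not overlap, but the control pair was wide and the log2 fold change of 0.10 ± 0.05 was not called (edgeR adjusted p = 0.166), although it was without control replicate 2 (edgeR adjusted p = 0.0101, at 0.16). Mcl1, a short-lived guardian, read 276 and 265 CPM in control and 282 and 285 in conditioned medium (log2 fold change 0.07 ± 0.04; edgeR adjusted p = 0.302). Bcl2l2, which encodes BCL-W, stood at 18.6 ± 1.92 and 19.4 ± 1.72 CPM (SD, n = 2), with overlapping groups. It shares 594 of 4462 exonic bases with Gm20521 on the same strand.

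Levels of different genes can be compared only per length, here as CPM per kilobase of exon. On that scale Mcl1 stood at 79.1 ± 2.17 in control (SD, n = 2), Bcl2l1 at 36.6 ± 1.99, Bcl2 at 8.68 ± 0.159 and Bcl2l2 at 4.57 ± 0.471, none of these neighbours lying within each other's spread. Bcl2 made up 6.66% and 6.80% of the summed per-length level of the anti-apoptotic genes in the control libraries and 5.32% and 5.49% in conditioned medium. The per-length ratio of Bcl2l1 to Bcl2 was 4.11 and 4.32 in control and 5.55 and 5.28 in conditioned medium, and that of Mcl1 to Bcl2 was 9.41 and 8.82 against 11.6 and 11.2. Bcl2 was a small part of the pool in every library. The shares and ratios were not tested. The summed level of all anti-apoptotic genes was 129 in each control library and 133 and 135 in conditioned medium.

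The BCL2A1 genes, encoding a guardian known from leukocytes and induced by NF-kB, were at 0 counts: Bcl2a1b and Bcl2a1d had none in any of the 4 libraries, which allows up to 0.217 CPM in the shallowest. Bcl2a1a and Bcl2a1c, their other mouse copies, were at 0 too. Bcl2a1b and Bcl2a1d are nearly identical, as their first 120 coding bases show, 5′ to 3′ from the start codon of the GENCODE M21 transcripts on chromosome 9, with the bases that differ in capitals.
Bcl2a1b: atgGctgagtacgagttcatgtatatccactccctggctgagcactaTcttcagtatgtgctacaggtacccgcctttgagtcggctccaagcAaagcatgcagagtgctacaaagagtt
Bcl2a1d: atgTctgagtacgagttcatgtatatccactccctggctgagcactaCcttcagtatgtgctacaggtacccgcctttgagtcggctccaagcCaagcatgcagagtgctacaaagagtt

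Over all 516 coding bases the pair differed at 6, an identity of 98.8%. Of all 50-base windows, 608 of 768 in the Bcl2a1b transcript and 647 of 814 in that of Bcl2a1d also occurred in a transcript of another gene, as did 531 of 770 for Bcl2a1a but 41 of 395 for Bcl2a1c. Bcl2a1b also shares 401 of 817 exonic bases with Gm29094, a gene on the same strand. The sources used here do not say how reads that fit several genes were counted. If such reads were dropped, the counts of 0 rest on the bases that are not shared.

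Neither pore-forming effector passed the test, where 16.8% of all genes tested did. Bak1, whose protein BAK opens the outer mitochondrial membrane, read 67.3 and 67.0 CPM in control and 62.0 and 59.3 in conditioned medium. The groups did not overlap, and the log2 fold change was -0.15 ± 0.06 (edgeR adjusted p = 0.0793, and between 0.0726 and 0.460 over 13 alternatives). Bak1 shares 614 of 2407 exonic bases with Ggnbp1 on the other strand, which had at most 23 counts in a library. Bok, a BAK relative, stood at 19.1 ± 1.49 and 18.1 ± 1.14 CPM, with overlapping groups.

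**Figure D2:**
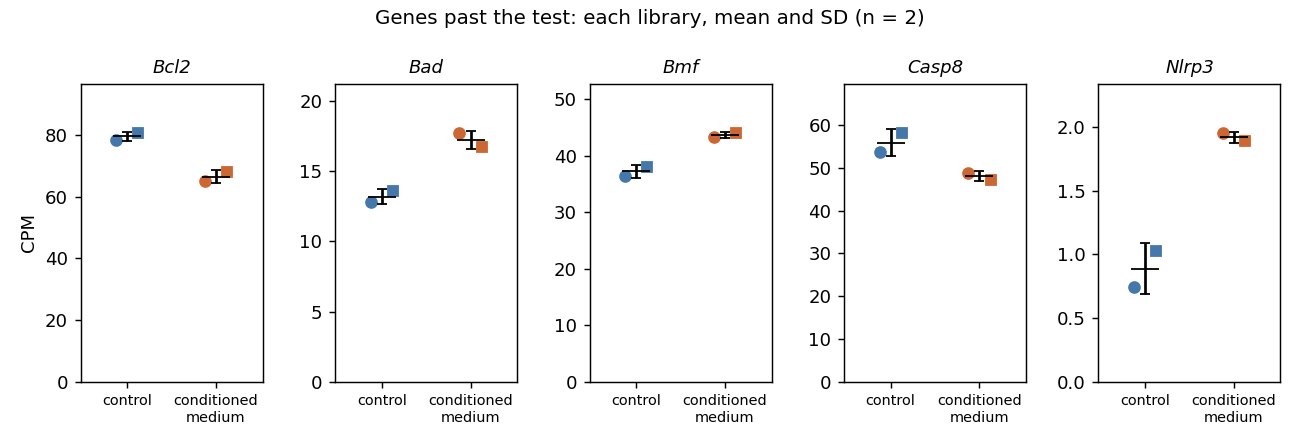
CPM (y axes from 0) of Bcl2, Bad, Bmf, Casp8 and Nlrp3 in each library, circles for replicate 1 and squares for replicate 2, with the group mean and SD. In each panel the conditioned medium libraries lie on the same side of both control libraries, and Nlrp3 is the gene with the widest control pair for its level. The genes were drawn because they passed the test, and in 57.2% of all genes tested the groups did not overlap either.

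Of 7 BH3-only genes 6 were tested, and Bad and Bmf rose, where 8.53% of all genes tested were called higher. Bad, whose product binds BCL-XL and BCL2 and is silenced by survival-factor phosphorylation, lies at chromosome 19, 6941861 to 6951905. It read 12.8 and 13.6 CPM in control and 17.7 and 16.8 in conditioned medium, so that both treated libraries exceeded both controls. The rise was 1.30-fold (log2 fold change 0.38 ± 0.11; edgeR adjusted p = 0.0176). Bad shares 524 of 2558 exonic bases with Gpr137, a gene on the opposite strand, and Gpr137 rose as well, its mean going from 26.2 ± 1.93 CPM in control to 31.5 ± 1.48 in conditioned medium (log2 fold change 0.27 ± 0.08; edgeR adjusted p = 0.0264). Without strand, reads from the shared bases cannot be told apart. Bad lost its call in DESeq2 (adjusted p = 0.203) and in edgeR without conditioned medium replicate 1 (adjusted p = 0.168) or replicate 2 (adjusted p = 0.121); its lowest adjusted p over 13 alternatives was 0.00854, at log2 fold changes of 0.34 to 0.42. Gpr137 lost its call under the same settings and without control replicate 1 (edgeR adjusted p from 0.00232 up to 0.315 over its alternatives).

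Bmf, a BH3-only gene whose product is tied to the actin cytoskeleton and linked to anoikis, lies at chromosome 2, 118528757 to 118549686. It read 36.4 and 38.1 CPM in control and 43.3 and 44.0 in conditioned medium. The treated pair lay above the controls and was the tighter of the pairs. The rise was 1.17-fold (log2 fold change 0.23 ± 0.07; edgeR adjusted p = 0.0235). Bmf lost its call in DESeq2 (adjusted p = 0.262) and in edgeR without control replicate 1 (adjusted p = 0.0774), conditioned medium replicate 1 (adjusted p = 0.140) or replicate 2 (adjusted p = 0.225), the lowest over 13 alternatives being 0.00961.

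The other BH3-only genes were not called. Bcl2l11, encoding BIM, which binds every guardian, was the most abundant of them per length, at 18.7 ± 0.414 CPM per kilobase in control. Its CPM was 131 and 127 in control and 127 and 125 in conditioned medium, a log2 fold change of -0.04 ± 0.05. Bid, which caspase-8 cleaves to pass a receptor signal to mitochondria, read 29.8 and 30.1 CPM in control and 26.4 and 27.5 in conditioned medium, without overlap (log2 fold change -0.15 ± 0.08; edgeR adjusted p = 0.205). It shares 628 of 3550 exonic bases with Bcl2l13 on the opposite strand, which was at 0.08 ± 0.07 and not called. The p53 targets Bbc3, encoding PUMA, and Pmaip1, encoding NOXA, were scarce: Bbc3 had 38 to 61 counts in each library and a log2 fold change of 0.25 ± 0.23, and Pmaip1 had at most 1 count. Bik had 79 to 107 counts and was at -0.26 ± 0.17.

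The summed per-length level of the BH3-only genes was 50.9 and 52.5 CPM per kilobase in control and 52.7 and 52.3 in conditioned medium. Bcl2l11 held 37.4% and 35.1% of it in control and 34.9% and 34.8% in conditioned medium, Bad 10.5% and 10.8% against 14.0% and 13.4%, Bmf 14.8% and 15.0% against 17.0% and 17.4%, and Bid 26.7% and 26.2% against 22.9% and 24.0%. These shares were not tested, and they depend on the lengths used. With all annotated transcripts counted, Bid is 3.55 and not 2.189 kilobases long and Bcl2l11 8.029 and not 6.896. The per-length ratio of anti-apoptotic to BH3-only genes was 2.53 and 2.46 in control and 2.53 and 2.59 in conditioned medium.

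**Figure D3:**
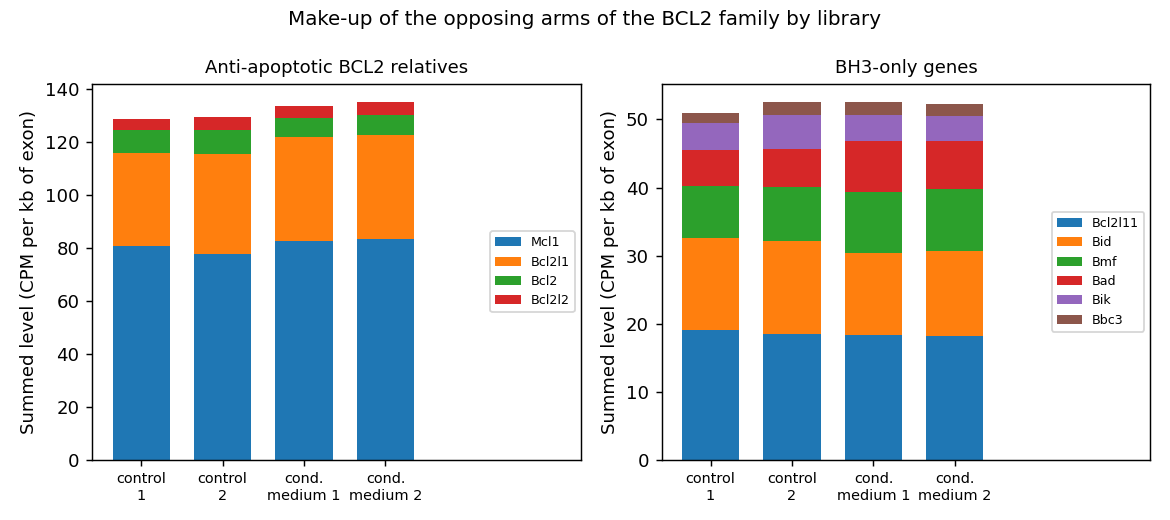
Stacked per-length levels (CPM per kilobase of exon, from 0) of the anti-apoptotic genes, left, and the BH3-only genes, right, in each library; genes without a level are not drawn. The left columns reach 129 in control and 133 and 135 in conditioned medium, and the right ones lie between 50.9 and 52.7, with the Bad and Bmf layers thicker in conditioned medium.

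Of 4 caspases of apoptosis Casp8 fell, where 8.23% of all genes tested were called lower. Casp8, the initiator that TNF receptors recruit through FADD, lies at chromosome 1, 58795233 to 58847503, and read 53.7 and 58.1 CPM in control and 48.9 and 47.2 in conditioned medium. The treated libraries lay below both controls, which themselves differed more than the treated pair. The fall was 1.17-fold (log2 fold change -0.22 ± 0.06; edgeR adjusted p = 0.0198). Casp8 lost its call in DESeq2 (adjusted p = 0.223) and in edgeR without control replicate 2 (log2 fold change -0.16; adjusted p = 0.0928), conditioned medium replicate 1 (adjusted p = 0.116) or replicate 2 (adjusted p = 0.251). Its lowest adjusted p over 13 alternatives was 0.00162, without control replicate 1. Casp9, the initiator of the mitochondrial route, stood at 18.7 ± 0.152 and 19.2 ± 1.30 CPM, and Casp6, an executioner, at 12.3 ± 0.970 and 13.6 ± 0.901. Casp2, an initiator tied to the PIDDosome, read 37.7 and 44.0 CPM in control and 37.0 and 38.4 in conditioned medium. Its value depended on which control library was kept. The log2 fold change was -0.11 with all libraries, 0.0033 without control replicate 2 and -0.22 without control replicate 1. With 2 controls these values cannot say which of them is the unusual one.

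The adaptors and inhibitors of caspases gave 0 calls among 5 by edgeR, with 1 at an unadjusted p under 0.05, and 0 by DESeq2. Over all genes tested edgeR called 16.8%, 29.5% had an unadjusted p under 0.05 and DESeq2 called 7.48%, so counts this low among 5 genes are near the background. Cflar, which lies beside Casp8 on chromosome 1 and encodes its inhibitor c-FLIP, read 141 and 132 CPM in control and 136 and 134 in conditioned medium. Its groups overlapped, and its log2 fold change was -0.01 with a 95% interval from -0.12 to 0.09. The per-length ratio of Cflar to Casp8 was 0.962 and 0.834 in control and 1.02 and 1.04 in conditioned medium, a ratio that was not tested. Its size depends on the lengths used. With the exons of all annotated transcripts counted, Cflar is 12.669 and not 7.87 kilobases long, while Casp8 stays at 2.893. On those lengths the ratio is lower in every library, in the same proportion. Xiap, which blocks active caspases directly, was at 290 ± 3.41 and 286 ± 2.14 CPM, with an interval from -0.11 to 0.07 on the log2 scale. Apaf1, the scaffold of the apoptosome, read 116 and 118 CPM in control and 127 and 128 in conditioned medium. These groups were tight and apart, yet the log2 fold change of 0.13 ± 0.05 missed the threshold (edgeR adjusted p = 0.0708) and passed it with upper-quartile scaling (edgeR adjusted p = 0.0431) and without control replicate 2 (edgeR adjusted p = 0.0434). Fadd, the adaptor of death receptors, was at -0.13 ± 0.15 on 106 to 124 counts, and Diablo, whose product relieves XIAP inhibition, at -0.14 ± 0.09. Fadd shares 239 of 3903 exonic bases with Faddos on the opposite strand. Diablo shares 1326 of 6166 with B3gnt4 on the opposite strand, which had at most 24 counts in a library, and 1193 with Gm49027 on the same strand.

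Among genes of the inflammasome and pyroptosis Nlrp3 rose from a low level. Nlrp3, the sensor of a canonical inflammasome, lies at chromosome 11, 59541569 to 59566955, and had 11 and 15 counts in control and 27 and 34 in conditioned medium, or 0.746 and 1.03 CPM against 1.95 and 1.89. The treated libraries lay close together, above both controls. The rise was 2.15-fold, a log2 fold change of 1.10 ± 0.34 with a 95% interval from 0.39 to 1.82 (edgeR adjusted p = 0.0305), and 138 of the 13897 genes tested, itself included, had a change of that size or more. The call was lost in edgeR without control replicate 1 (log2 fold change 0.89; adjusted p = 0.193), conditioned medium replicate 1 (adjusted p = 0.175) or replicate 2 (adjusted p = 0.195), with a lowest adjusted p of 0.0157 over 12 alternatives, and DESeq2 gave no adjusted p.

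Nlrp3 is best known from macrophages, so their markers were set beside it. Without Cd68 the macrophage markers summed to 5.69 and 5.68 CPM in control and 6.57 and 6.93 in conditioned medium. Cd53, a leukocyte tetraspanin, had 20 and 12 counts in control against 26 and 39 (log2 fold change 0.90 ± 0.33; edgeR adjusted p = 0.0727). Lyz2 was at a log2 fold change of 0.01. Adgre1, Mrc1 and Tyrobp were at 0 counts in all libraries, and Ptprc, Itgam, Fcgr1 and Laptm5 had at most 3 counts in any. The part of these markers in the result was not tested.

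The partners of NLRP3 in the canonical inflammasome were near the limit of detection. Pycard, encoding the adaptor ASC, had 9, 12, 6 and 10 counts in control 1, control 2, conditioned medium 1 and conditioned medium 2, and Casp1, the protease that ASC activates, had 4, 7, 6 and 6. Neither had enough counts to be tested. Pycard shares 485 of 3800 exonic bases with Gm45205 on the opposite strand. The non-canonical route was well expressed. Casp4, the mouse gene for caspase-11, which senses cytosolic lipopolysaccharide, read 113 and 105 CPM in control and 117 and 124 in conditioned medium, without overlap. Its log2 fold change of 0.14 ± 0.05 was not called (edgeR adjusted p = 0.0625), and it was called with upper-quartile scaling (edgeR adjusted p = 0.0396), with the replicate block (0.0431), with robust spread estimation (0.0451) and without control replicate 1 (0.00414).

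Casp12, its neighbour on chromosome 9, encodes a caspase linked to endoplasmic reticulum stress in mice and was at 86.5 ± 0.183 and 88.2 ± 1.49 CPM. Gsdmd, encoding the pore-former gasdermin D, read 34.4 and 35.1 CPM in control and 35.0 and 37.8 in conditioned medium, with overlapping groups and a 95% interval from -0.08 to 0.22 on the log2 scale. Gsdme, the gasdermin cut by executioner caspases, was at 12.6 ± 0.815 and 13.5 ± 0.986 CPM. Per length, Casp4 stood at 76.0 ± 3.60 CPM per kilobase in control, close to Mcl1, whose mean lay within the spread of Casp4. Casp1 was at 0.251 ± 0.0984, Nlrp3 at 0.218 ± 0.0491 and Pycard at 0.188 ± 0.0394, which overlap on the lengths used. The 3.8 kilobases used for Pycard exceed its RefSeq span, 127991373 to 127993867 on chromosome 7. Its level is understated if its counts follow that span, so its place beside Casp1 and Nlrp3 is not settled. With the exons of all annotated transcripts counted, including unspliced ones, the length of Casp4 is 3.71 and not 1.435 kilobases, and its level is lower in proportion.

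The necroptosis genes were not called, where 16.8% of all genes tested were. Mlkl, the executor that ruptures the plasma membrane, read 53.7 and 52.0 CPM in control and 52.9 and 55.4 in conditioned medium, with overlapping groups and a 95% interval from -0.09 to 0.16 on the log2 scale. Ripk3, the kinase that activates MLKL, read 4.34 and 3.77 CPM in control and 4.55 and 4.77 in conditioned medium. Its groups did not overlap, yet on 55 to 86 counts in a library the log2 fold change of 0.20 ± 0.20 was not called (edgeR adjusted p = 0.534), with an interval from -0.20 to 0.61. Per length Mlkl stood at 26.4 ± 0.624 and Ripk3 at 2.05 ± 0.205 CPM per kilobase in control.

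**Figure D4:**
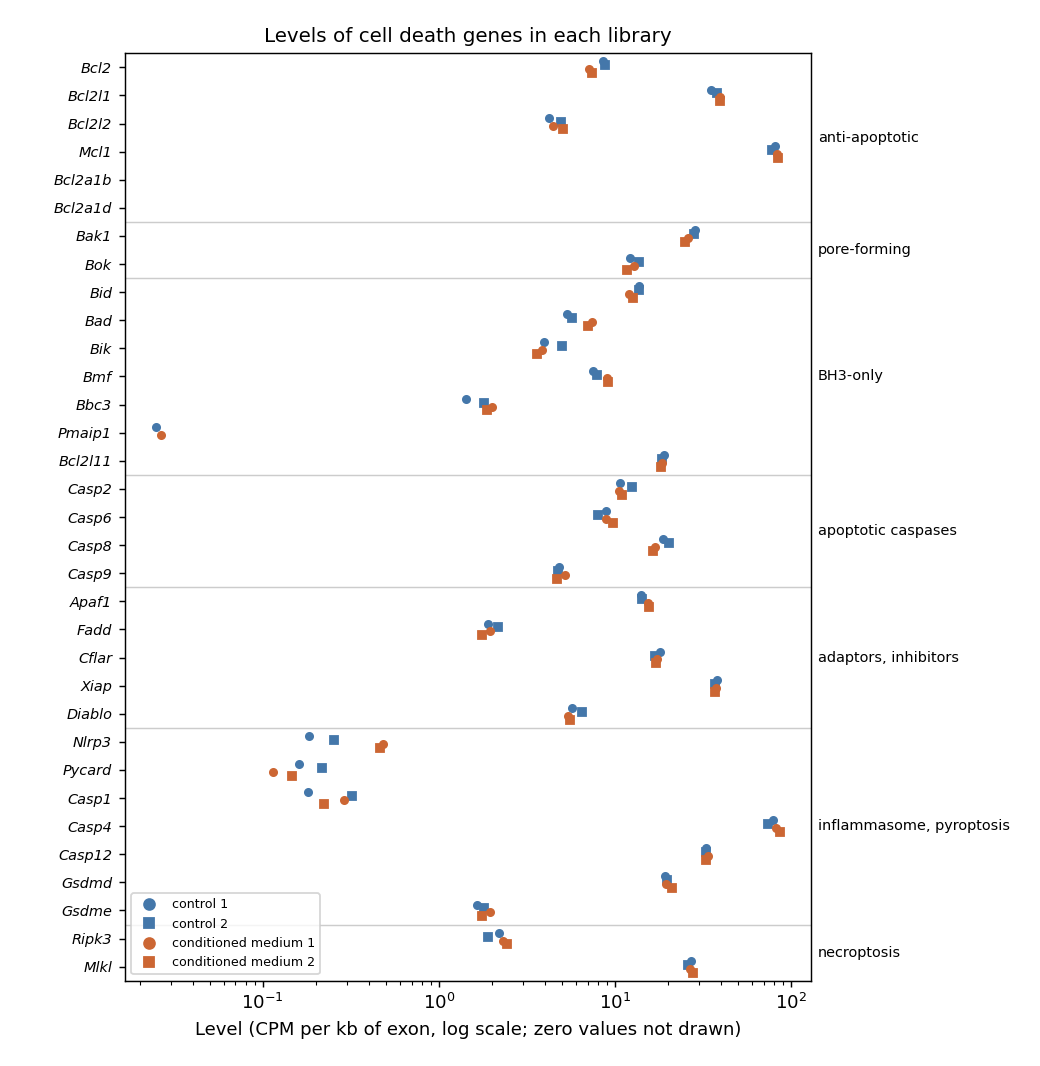
Level of each of the 33 genes (y axis, by role) in CPM per kilobase of exon on a log axis, with a point per library. Mcl1 and Casp4 lie highest, Nlrp3, Pycard, Casp1 and Pmaip1 lie below 1, and Bcl2a1b and Bcl2a1d, at 0, have no points.

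For the 23 genes tested and not called, the 95% intervals of the edgeR fit set how large an undetected change could be under that fit. Their widths rest on a spread partly shared across genes. In 16 the interval lay within a 1.25-fold change either way, and in 20 within a 1.5-fold change. The intervals of Bik, Bbc3 and Ripk3 reached past 1.5-fold, and those of Casp6, Fadd, Diablo and Gsdme past 1.25-fold. These counts hold for edgeR with all 4 libraries. Intervals were not computed for DESeq2, whose p-values for these genes were larger, so its bounds would be wider. For Bid, at a log2 fold change of -0.15 in both, the unadjusted p was 0.237 in DESeq2 against 0.0670 in edgeR.

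A list of 56 other cell death genes held none of the 33. Of 45 tested 6 rose and 2 fell, or 17.8%, near the 16.8% called among all genes tested, with a median log2 fold change of 0.01. The largest rise was in Bnip3, a mitochondrial BH3-like protein that marks mitochondria for removal, from 34.4 and 26.1 CPM to 48.2 and 42.0 (log2 fold change 0.57 ± 0.10; edgeR adjusted p = 3.24e-04). Its relative Bnip3l rose by 0.29 ± 0.05, and Dap, a death-associated protein gene, by 0.35 ± 0.06. Bnip3 and Dap were called under all 13 alternatives, and Bnip3l under 12. Aifm2, which encodes the ferroptosis suppressor FSP1, rose by 0.43 ± 0.10, and Ninj1, whose product ruptures the membrane of dying cells, by 0.32 ± 0.09.

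Fas, the death receptor that shares FADD and caspase-8 with TNF receptors, read 12.7 and 12.3 CPM in control and 8.66 and 10.1 in conditioned medium, a fall of 0.40 ± 0.13 on the log2 scale (edgeR adjusted p = 0.0360). Tnfrsf1a, the main TNF receptor, rose by 0.26 ± 0.05 and Pdcd10, a vascular stability gene, fell by 0.20 ± 0.06. Without conditioned medium replicate 1, Bnip3l (edgeR adjusted p = 0.0543), Tnfrsf1a, Aifm2, Ninj1, Fas and Pdcd10 lost their calls, and without replicate 2 the same genes other than Bnip3l did. DESeq2 did not call Aifm2, Ninj1, Fas or Pdcd10, and without control replicate 1 Ninj1, Fas and Pdcd10 were not called, nor were Fas and Pdcd10 with no count filter. With all 4 libraries, the DESeq2 adjusted p was 0.00662 for Tnfrsf1a, 0.0969 for Aifm2, 0.180 for Ninj1, 0.285 for Fas and 0.292 for Pdcd10. In the same order, the edgeR adjusted p with the replicate block was 4.27e-06, 0.00113, 0.00542, 0.0198 and 0.0190. Ripk1, the kinase at the branch between survival and death below TNF receptors, was at -0.12 ± 0.05 and not called (edgeR adjusted p = 0.131). In the same list the interleukin gene Il1b, a product of the inflammasome route, had 0 counts in all libraries.

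**Figure D5:**
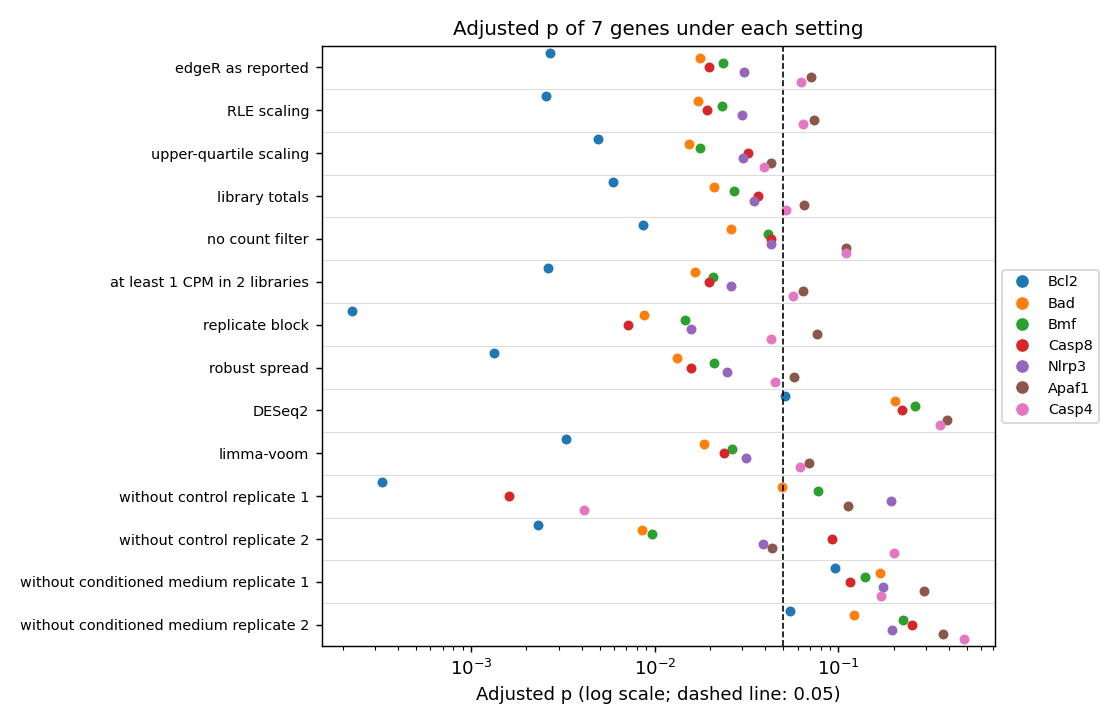
Adjusted p (log axis) of the 5 genes called and of Apaf1 and Casp4 under the reported test and each alternative, with a dashed line at 0.05. The points of the 5 called genes lie left of the line under the other scalings, filters and spread estimates, and right of it when either conditioned medium library is left out; with DESeq2 those of Bcl2, Bad, Bmf and Casp8 lie right of it and Nlrp3 has none.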

How the data were processed

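Total RNA was made into libraries with the TruSeq RNA V2 kit, per the labels' protocols. The authors deposited raw counts per Entrez gene for 4 libraries. Per the submitters' processing notes the tools were STAR 2.5.2b and featureCounts of Subread 1.4.6-p1 on mm10; settings and annotation are not stated. Symbols and coordinates came from RefSeq (GRCm38.p6), which matched 25275 of 27179 rows; the rest, with 6.31% of counts, stayed in the tests. Groups followed the treatment label.

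edgeR 4.0.16 (R 4.3.3) was run with filterByExpr (minimum count 10, total 15), TMM and the two-sided quasi-likelihood test. P-values were Benjamini-Hochberg adjusted over 13897 genes and called under 0.05. The fit left 2 residual degrees of freedom per gene. The test added prior degrees of freedom shared across genes, and p-values and intervals used the total. SEs derive from the log2 fold change and its F statistic; intervals are at 95%. Floors of 3 counts cover counting error only. Exon lengths behind per-length levels are unions over GENCODE M21 basic transcripts. Exonic bases shared with other genes, and the totals beside them, were counted over all annotated transcripts of that release. A gene can thus have 2 lengths here, as Bid does with 2.189 and 3.55 kilobases. Alternatives were other scalings, filters and spread estimates, the replicate block, each library left out, DESeq2 1.42.0 and limma-voom (limma 3.58.1).

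The genes and lists were chosen with earlier results of these data known. Described in full were genes called, the smallest p of each role with none called, and Bcl2, Bcl2l1, Mcl1, Casp8, Cflar, Gsdmd and Mlkl. Of the other list, the 6 called with the largest change were named. Bnip3 and Fas of these are given by library, and Aifm2, Dap, Ninj1 and Bnip3l by log2 fold change. Tnfrsf1a, Pdcd10, Ripk1, Il1b, Gpr137 and Cd53 were named after their values were seen. Same-numbered replicates did not deviate together (correlation -0.03), so numbers were not taken as pairs.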

Additional observations from a re-analysis of the deposited data

How the results depend on the processing

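Over all genes tested, edgeR called 2330, DESeq2 918, and edgeR between 569 and 3107 with a library left out. Among the 33 cell death genes edgeR called 3 higher and 2 lower, DESeq2 0 and 0, and upper-quartile scaling 5 higher; with a library left out the counts ran from 0 to 5 higher and from 0 to 3 lower. With a replicate block edgeR called 2671 genes in all, and 4 higher and 2 lower of the 33, Casp4 being the one added. Of the other cell death genes, 6 higher and 2 lower became 4 higher and 0 lower in DESeq2 and 6 and 0 with no count filter, and ran from 2 to 6 higher and 0 to 4 lower with a library left out.

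Of 363 comparisons of a gene's log2 fold change with its alternatives, 338 stayed on the same side of the threshold, 17 lost a call, 8 gained one and 0 reversed a call. RLE scaling, library totals, the filter at 1 CPM, no filter and limma-voom changed no call among the 33. The 4 libraries have 2 residual degrees of freedom. With a conditioned medium library left out, the replicate spread comes from the control pair alone, the lone library being assumed to vary like it. With a control library left out, it comes from the conditioned medium pair alone, the closer of the pairs. Depth limits Nlrp3, Pycard, Casp1, Pmaip1 and the Bcl2a1 copies, which had at most 34 counts in a library.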
